A study of Mus musculus with 137 samples.

Results

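The subject is how the effect of bleomycin on the lungs of young mice differed between day 56 and day 14. It is the difference between bleomycin and saline lungs on day 56 minus the same difference on day 14, and is called the change below. The lungs were chosen by their labels alone: young mice given bleomycin or saline and killed on day 14 or day 56, 19 of the 60 young and 77 old lungs of the study. The study followed lung injury and its repair in male C57BL/6J mice that were young (8 to 12 weeks) or old (21 months), up to day 56 after instillation into the windpipe, by sequencing polyadenylated RNA of whole lung. The 4 groups were 5 young mice on day 14 after saline, 5 on day 14 after bleomycin, 5 on day 56 after saline and 4 on day 56 after bleomycin. Young mice received 0.7 mg/kg bleomycin, old mice 0.63 mg/kg. The saline mice were the controls for the procedure, which was the same for both treatments by the labels. Each library came from 20 mg of dissected, flash-frozen lung.

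Bleomycin is an antibiotic that breaks DNA; given into the airways it kills alveolar epithelium, draws monocytes into the lung and is followed by a wave of fibroblast growth and collagen deposition. In young mice this scarring is known to recede over weeks, unlike human pulmonary fibrosis, which makes the model a standard one for resolution. Resolution involves less matrix synthesis, loss or removal of activated fibroblasts, clearance of matrix by macrophages, and replacement of lost alveolar type 1 cells by type 2 cells that pass through a transitional state.

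The 19 libraries held 17813587 to 31019168 counted reads, with a median of 21084349. Expression is given as CPM, the counts scaled to a common library total, which are not divided by gene length and so are not compared between genes. All 19 lungs expressed the lung markers, from Sftpc of alveolar type 2 cells (7767 to 23940 CPM) to the endothelial Cldn5 (321 to 1106 CPM) and the alveolar macrophage gene Marco (6.34 to 36.1 CPM). Lungs are numbered 1 to 5 within a group only to name them. Among the day-14 bleomycin lungs, lung 4 stood apart: 2.22 median absolute deviations farther from its group than the median library of the study, with the smallest rise of most injury genes. Its cardiac muscle genes also averaged 3.84 on the log2 CPM scale against 1.33 to 2.34 in the other 4 lungs and 3.73 to 4.31 in saline lungs. The saline groups were not alike either: genes of the immediate early response, which rise within minutes of handling, averaged 6.65 to 8.02 in day-56 saline lungs and 5.62 to 7.14 in day-14 saline lungs. No pair of libraries agreed within sampling noise. The labels do not say that mice came from separate litters or instillation days, so p-values measure only the spread between these lungs. In whole lung, fewer cells of a type and less RNA per cell cannot be told apart.

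Of 18396 genes tested, 830 changed, which is 4.51% (edgeR's quasi-likelihood test, Benjamini-Hochberg adjusted p below 0.05). The effect was lower on day 56 for 579 genes (3.15%) and higher for 251 (1.36%). The bleomycin lungs of the 2 days did not overlap for 261 of the 579 lower genes and 54.2% of the 251 higher ones. These genes had been called from the same lungs, and the share over all genes tested is not given. The lack of overlap is therefore not separate evidence for the change. On day 14 itself 7188 genes (39.1%) differed between bleomycin and saline, 3696 higher (20.1%) and 3492 lower (19%). By day 56 the number was 2982 (16.2%), 1456 higher (7.91%) and 1526 lower (8.3%). The 2 days share no lungs: 1020 genes were higher on both (27.5% of those higher on day 14 and 69.7% of those higher on day 56), and 1020 were lower on both (29.2% and 66.9%). Opposite calls on the 2 days were rare, 14 genes higher and then lower, and 9 lower and then higher. The count of changed genes rested on few lungs. It was 318 without day-14 bleomycin lung 2, 495 and 496 without day-56 bleomycin lungs 2 and 3, 409 without day-56 saline lung 2, and 1673 without the mild day-14 bleomycin lung 4. With the mean of the immediate early genes as a covariate it was 519, of which 474 were among the 830. Between the 2 saline groups 63 genes differed (0.342%), 61 of them higher on day 56 (0.332%) and 2 lower (0.0109%), and 26 of the 579 lower genes were among those.

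**Figure D1:**
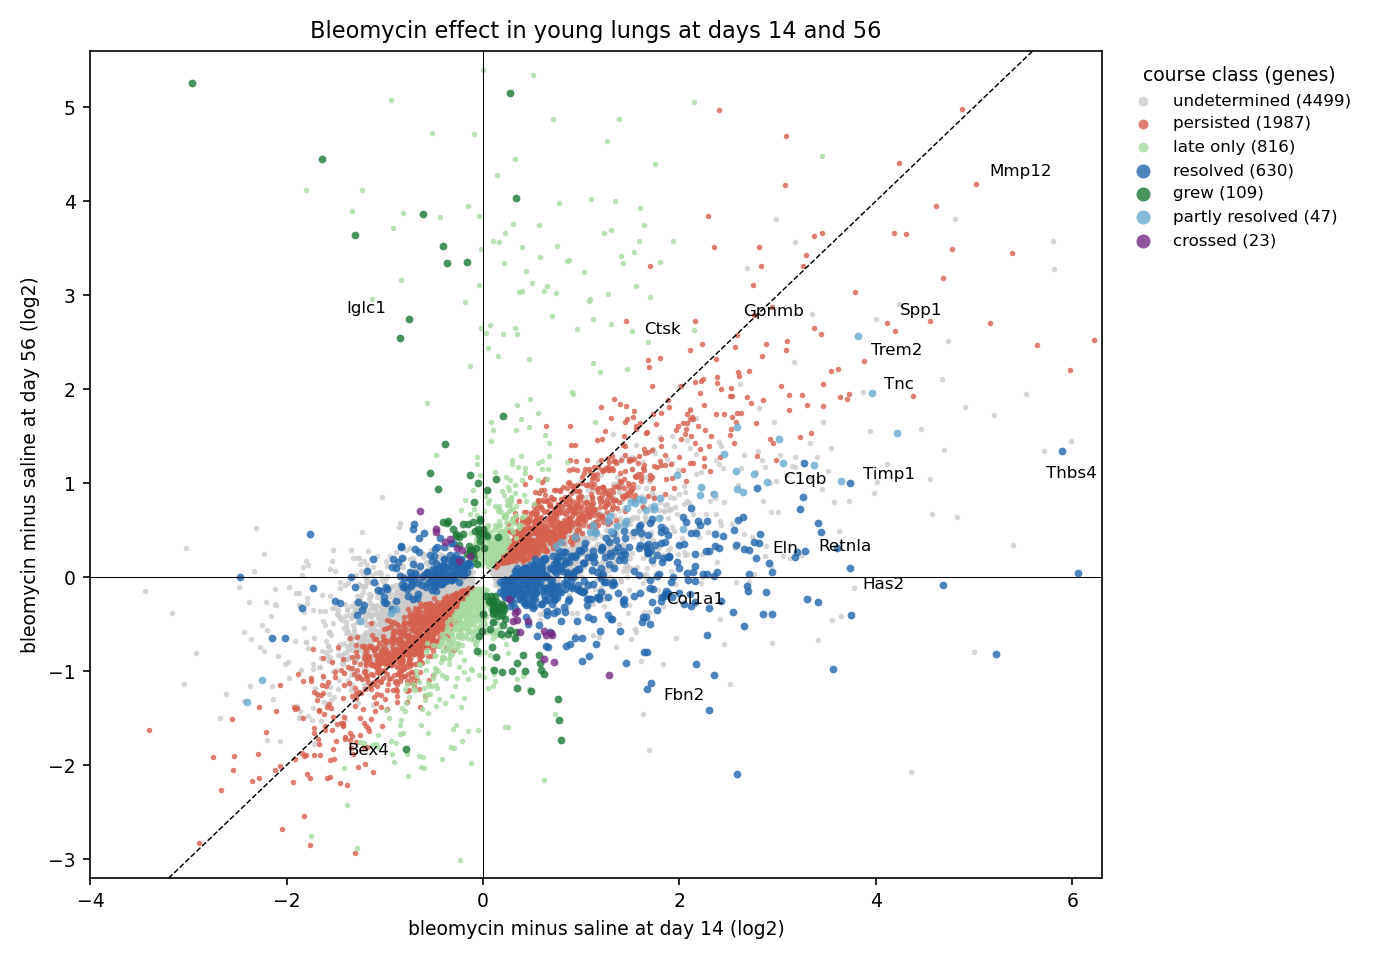
Each point is a gene of 1 of the 7 classes described below, at its bleomycin minus saline log2 difference on day 14 (horizontal axis) and day 56 (vertical axis), coloured by class. Resolved genes lie along the horizontal axis, persistent genes along the diagonal, and genes of late growth along the vertical axis. These positions follow in part from the calls that define the classes, and 19 points lie outside the axes.

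Each gene was placed in a class by its calls on day 14, on day 56 and in the change. The medians of a class on those 2 days follow in part from that choice of genes, whereas days 21 to 42 use other lungs. Resolved genes, called on day 14, called in the change towards 0 and not called on day 56, numbered 630 (461 higher and 169 lower on day 14). For the 461 the median difference went from 0.89 to -0.03 on the log2 scale, by way of 0.66, 0.42, 0.35 and 0.11 on days 21, 28, 35 and 42. Partly resolved genes, which also remained called on day 56, numbered 47, of which 42 were higher, with medians of 1.77 and 0.81. Persistent genes, called on both days in 1 direction with no call in the change, were the largest class with a call on day 56: 972 higher, with medians of 0.73 and 0.59, and 1015 lower, with medians of -0.65 and -0.58. Among genes that grew, with a change away from 0 and a call on day 56, 56 were higher and 53 lower on day 56, and 23 genes crossed from one side to the other. A further 816 were called on day 56 alone without a call in the change. For 4499 genes called on day 14 the data did not decide: they were called neither on day 56 nor in the change, and the 95% interval of their change reached a median of 0.36 to either side. Persistence means only that no change was called, since the interval of the change reached a median of 0.42 to either side in the persistent class. A direct test of whether more or less than 0.5 of the day-14 difference was left on day 56 called 342 of all genes tested (1.86%), 0.957% higher and 0.902% lower. Among the 7188 genes of day 14, 67 kept more than that share, 95 kept less, and 7026 could not be placed. The 1.86% fell to 0.28% without day-56 bleomycin lung 3, 0.575% without lung 4, 0.844% without lung 2, 1.09% without day-14 bleomycin lung 2, and 0.462%, 0.967% and 0.864% without day-56 saline lungs 2, 1 and 3.

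Most fibrillar collagen and elastic fibre genes were higher on day 14 and no longer called on day 56. Of 34 interstitial matrix genes, 30 were higher on day 14 and 4 on day 56. The median difference of the 34 genes went from 1.53 to 0.18, against -0.01 and -0.02 over all genes tested. In the change 16 of the 34 were lower and none higher, with 33 of the 34 estimates negative and a median of -1.20 against -0.01 over all genes. Without day-14 bleomycin lung 2 the count was 9.

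Col1a1, a chain of the main fibrillar collagen, was at 471, 532, 434, 541 and 496 CPM in the day-14 saline lungs. Bleomycin lungs on that day held 1969, 3578, 1685, 854 and 2317 CPM. By day 56 the saline lungs were at 442, 712, 479, 475 and 478 CPM and the bleomycin lungs at 548, 424, 522 and 645 CPM. Every day-14 bleomycin lung lay above every saline lung, lung 2 highest and lung 4 lowest, whereas on day 56 the ranges of the 2 treatments overlapped. The day-14 difference was 2.07 ± 0.32 (log2, SE), a 4.21-fold higher level, and the day-56 difference 0.05 ± 0.32. Col1a1 fell by 2.02 ± 0.45 in the change (adjusted p = 0.00307, edgeR). Its partner chain Col1a2 fell by 1.76 ± 0.39 (adjusted p = 0.00312). Col3a1, the chain of early scar collagen, fell by 1.33 ± 0.34 (adjusted p = 0.0128, or 0.0612 without day-14 bleomycin lung 2, each by edgeR).

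Eln, the elastin precursor, was far above the saline level on day 14. Day-14 bleomycin lungs were at 3795, 5476, 4858, 1336 and 4105 CPM, against 497 to 615 CPM in saline lungs. On day 56 the bleomycin lungs were at 616, 630.1, 889.9 and 1101 CPM and the saline lungs at 533 to 662 CPM. Even the mild lung 4 of day 14 exceeded all 4 day-56 bleomycin lungs, and lungs 3 and 4 of day 56 still lay above all saline lungs. The day-56 difference of 0.46 ± 0.31 was not called (adjusted p = 0.352), and Eln fell by 2.36 ± 0.44 in the change (adjusted p = 0.00035, edgeR). Has2, which makes hyaluronan, was at 6.41, 18.9, 5.12, 1.3 and 10.3 CPM in bleomycin lungs of day 14 and 0.834, 0.513, 0.878 and 1.21 CPM on day 56, with saline lungs between 0.310 and 0.903 CPM on day 14 and 0.607 to 0.995 CPM on day 56. The day-56 bleomycin lungs thus spanned the saline range, and Has2 fell by 3.64 ± 0.78 (adjusted p = 0.00198, edgeR). Thbs4, a thrombospondin of tendon and muscle matrix, was barely detected in day-14 saline lungs (0.0920 to 0.523 CPM) and stood at 2.74 to 32.6 CPM in the bleomycin lungs of that day. It was at 0.222 to 2.36 CPM in the day-56 bleomycin lungs and 0.333 to 0.952 CPM in saline lungs of that day. Its change passed the test (adjusted p = 0.00141, edgeR), but so low a baseline gives no useful fold change.

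Fn1, which codes for fibronectin, did not come all the way down. Its bleomycin lungs held 3997, 7445, 3821, 1255 and 4115 CPM on day 14 and 1060.0, 1040.0, 1269 and 1420.0 CPM on day 56, against 531 to 740.2 and 485 to 652 CPM in the saline lungs. All bleomycin lungs lay above all saline lungs, and the mild day-14 lung lay among those of day 56. The difference was 2.76 ± 0.35 on day 14 and 1.09 ± 0.35 on day 56, called on both days, and fell by 1.66 ± 0.49 (adjusted p = 0.0314, edgeR). That last call was lost, with adjusted p up to 0.138, without any 1 of day-14 bleomycin lung 2, day-14 saline lungs 1 and 3, and day-56 bleomycin lungs 1, 2 and 3. Thbs1, which can activate latent TGF-beta, fell by 2.04 ± 0.42 (adjusted p = 0.0015, edgeR) to a day-56 difference of -0.21 ± 0.30.

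**Figure D2:**
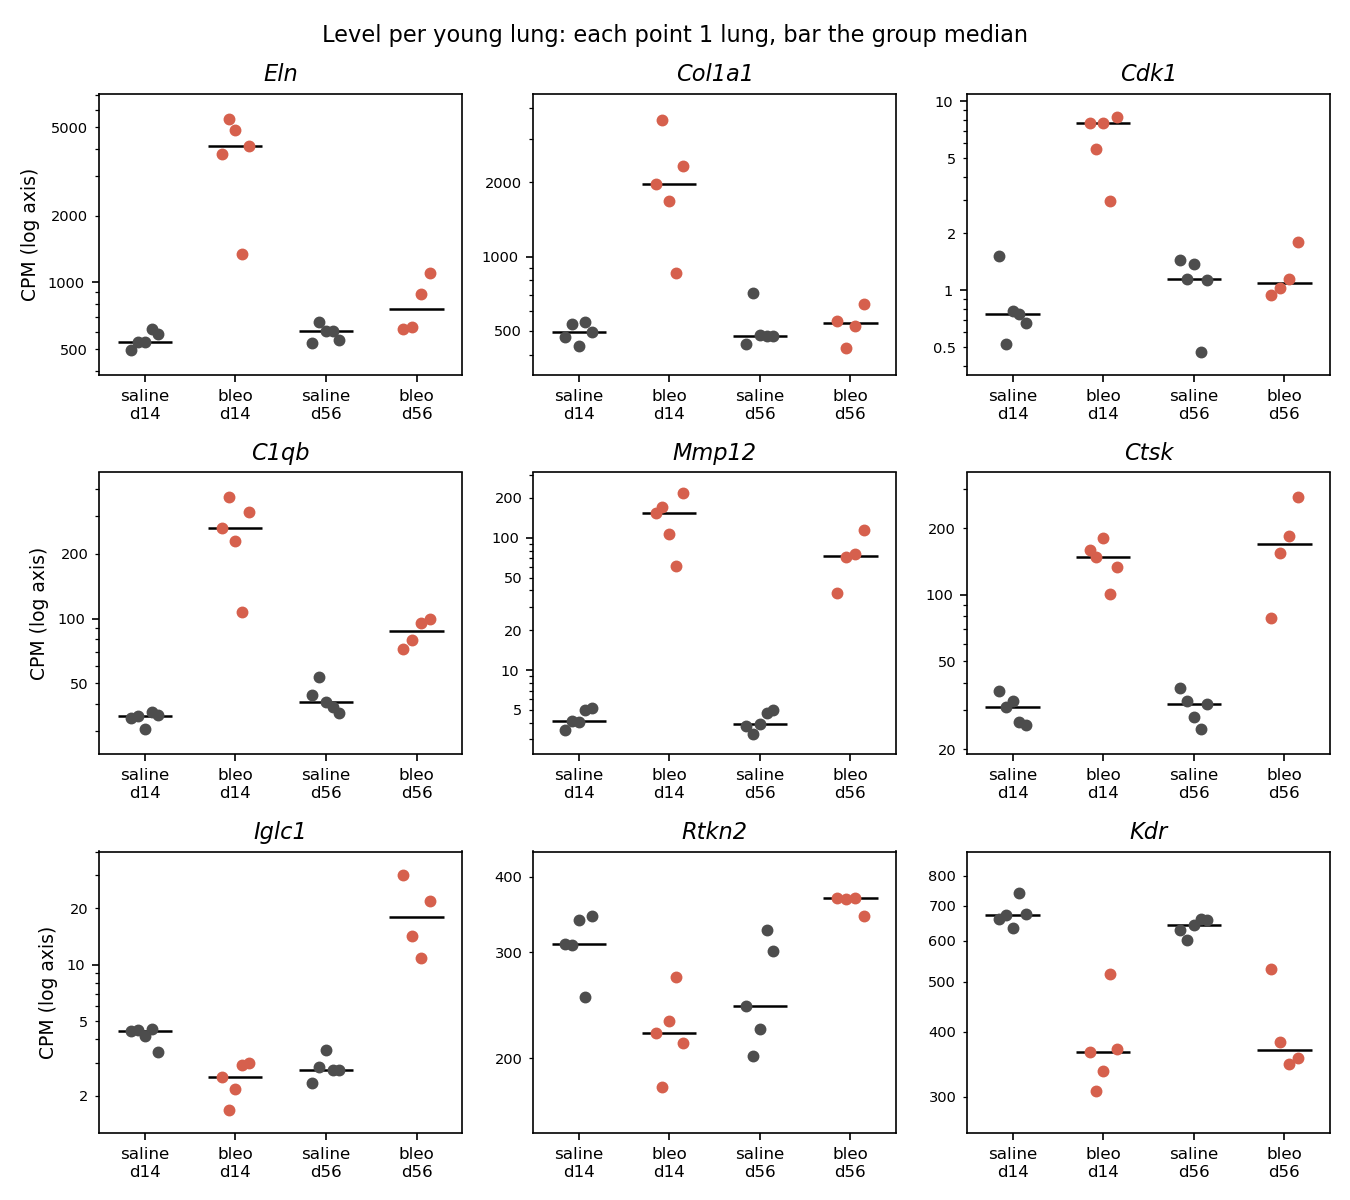
CPM (log axis) of 9 genes in each of the 19 lungs, by treatment and day, with the group median as a bar. Eln, Col1a1 and Cdk1 are back within or near the saline range on day 56, C1qb is part of the way, Mmp12 and Ctsk remain high, Kdr remains low, and Iglc1 is high on day 56 alone.

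Many enzymes that process and cross-link collagen were lower in the change. Of 24 tested, 17 were higher and 2 lower on day 14, 1 was higher and 4 were lower on day 56, and 10 were lower in the change with none higher (median -0.61). That count was 3 without day-14 bleomycin lung 2 and 16 without lung 4 of that group, and between those values, from 4 to 6, without each of 7 other lungs. Lox, the lysyl oxidase that cross-links collagen and elastin, was at 255, 519, 371, 104.6 and 303 CPM in day-14 bleomycin lungs. It was at 75.7, 57.9, 66.8 and 75.2 CPM on day 56, against 63.97 to 77 and 68.5 to 98.8 CPM in saline lungs of the 2 days. Here every day-56 bleomycin lung lay below every day-14 one, and Lox fell by 2.42 ± 0.41 (adjusted p = 0.000111, edgeR). Less than 0.5 of its day-14 difference was left (adjusted p = 0.0168 by edgeR's test of that share). Adamts2, the enzyme that trims procollagen, fell by 1.42 ± 0.29 (adjusted p = 0.0015, edgeR), and Fkbp14, a prolyl isomerase of collagen folding, by 0.90 ± 0.20 (adjusted p = 0.0035). Of 21 basement membrane genes 16 were higher on day 14 and 6 on day 56, and 5 were lower in the change. Col4a1, a chain of the collagen sheet under epithelium and capillaries, fell by 1.06 ± 0.26 (adjusted p = 0.00636, edgeR), while the laminin chain Lamb1 went from 0.35 ± 0.12 to -0.36 ± 0.13, called on opposite sides of 0. Without day-14 bleomycin lung 2 the basement membrane count was 1, without lung 4 it was 10, and it was 3 without day-14 bleomycin lung 1 or 3, day-14 saline lung 1 or day-56 bleomycin lung 2 or 3.

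Some of the signals that drive fibroblasts were lower in the change. Of 25 ligands, activators and antagonists of the TGF-beta and BMP pathways, 17 were higher on day 14 and 7 on day 56, and 6 were lower in the change against 1 higher (2 lower without day-14 bleomycin lung 2). Inhba, the subunit of activin A, was at 6.84, 22.8, 7.31, 1.78 and 11.4 CPM in day-14 bleomycin lungs and 1.22, 2.05, 1.71 and 2.36 CPM on day 56, against 0.946 to 1.19 and 1.08 to 2.09 CPM in saline lungs. The mild day-14 lung lay within the range of the day-56 lungs and the other 4 above it, and Inhba fell by 2.93 ± 0.73 (adjusted p = 0.00928, edgeR). Its antagonist Fst, follistatin, fell by 2.68 ± 0.65 (adjusted p = 0.00788, edgeR). Without day-14 bleomycin lung 2 these adjusted p were 0.0631 and 0.0593. Of 12 targets of TGF-beta, 9 were higher on day 14 and 2 on day 56, all 12 had negative changes, and 3 were called lower, with 1 without day-14 bleomycin lung 2 and 7 without lung 4. Ccn2, the connective tissue growth factor, fell by 1.67 ± 0.32 (adjusted p = 0.000536, edgeR). Plau, the urokinase that activates plasmin, resolved from 0.89 ± 0.13 to 0.01 ± 0.14 and fell by 0.88 ± 0.20 (adjusted p = 0.00338, edgeR).

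Matrix proteases and their inhibitors split. Of 26, 24 were higher on day 14 and 10 on day 56, 9 of them on both, and 10 were lower in the change (median -0.80). That count was 3 without day-14 bleomycin lung 2, 6 without day-14 saline lung 1 or 5 or day-56 bleomycin lung 3, and 5 without day-56 bleomycin lung 1 or 2 or day-56 saline lung 2. Timp1, the main induced inhibitor of matrix metalloproteinases, was at 61.2, 143.5, 60.0, 15.02 and 82.5 CPM in bleomycin lungs on day 14 and 9.12, 10.5, 13.9 and 17.1 CPM on day 56, against 4.80 to 6.28 and 4.99 to 10.01 CPM in saline lungs. Of the day-56 bleomycin lungs 3 lay above all saline lungs, and the mild day-14 lung lay among them. Timp1 fell by 2.74 ± 0.64 (adjusted p = 0.00487, edgeR), and its day-56 difference of 0.9996 ± 0.46 was not called (adjusted p = 0.126). The membrane collagenase activator Mmp14 went from 1.79 ± 0.21 to 0.62 ± 0.21, called on both days and in the change (adjusted p = 0.0101, edgeR).

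The macrophage elastase Mmp12 was called on both days but not in the change, where its estimate was near the median of the list. Day-14 bleomycin lungs held 153, 172, 106.9, 61.4 and 219.7 CPM and day-56 bleomycin lungs 38.3, 71.5, 75.1 and 114.7 CPM, whereas saline lungs were at 3.54 to 5.17 CPM on day 14 and 3.31 to 5.03 CPM on day 56. All 9 bleomycin lungs lay above all 10 saline lungs. The difference was 5.02 ± 0.53 and 4.18 ± 0.53 on the 2 days, and the change of -0.85 ± 0.72 had a 95% interval from -2.28 to 0.59 (adjusted p = 0.586, edgeR), which leaves both a large fall and a small rise possible.

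Cell division genes were higher on day 14 and near the saline level on day 56. Of 30 proliferation genes, 28 were higher on day 14, none on day 56 and 1 lower, and the median difference went from 1.88 to 0.06. All 30 changes were negative, with a median of -1.81, and 18 were called lower, from 15 to 21 with any 1 lung left out. The promoters of 3 of the members with the smallest p are printed to show letters that they share near the start. They are 250 bases before to 50 after the start in RefSeq, mouse build GRCm38.p6, given 5′ to 3′ on the gene's strand. Capitals mark CCAAT, the letters bound by NF-Y, and TTTGAA, the cell cycle homology element, found on either strand and without overlap between the motifs. Cdc20 is at chr4:118437294-118437593 (minus strand), Cenpf at chr1:189688037-189688336 (minus strand) and Prc1 at chr7:80294201-80294500 (plus strand).
Cdc20: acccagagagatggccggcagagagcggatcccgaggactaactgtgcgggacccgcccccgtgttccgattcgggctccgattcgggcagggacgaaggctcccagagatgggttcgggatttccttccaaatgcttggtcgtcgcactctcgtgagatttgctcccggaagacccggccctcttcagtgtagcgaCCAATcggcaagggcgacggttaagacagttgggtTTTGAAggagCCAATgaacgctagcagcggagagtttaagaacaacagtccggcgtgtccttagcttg
Cenpf: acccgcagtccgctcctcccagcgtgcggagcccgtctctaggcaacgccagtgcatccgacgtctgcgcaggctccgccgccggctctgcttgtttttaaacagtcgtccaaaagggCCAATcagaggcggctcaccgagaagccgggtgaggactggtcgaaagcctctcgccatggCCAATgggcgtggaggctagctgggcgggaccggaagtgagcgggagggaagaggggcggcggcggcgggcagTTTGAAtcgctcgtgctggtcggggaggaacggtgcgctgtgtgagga
Prc1: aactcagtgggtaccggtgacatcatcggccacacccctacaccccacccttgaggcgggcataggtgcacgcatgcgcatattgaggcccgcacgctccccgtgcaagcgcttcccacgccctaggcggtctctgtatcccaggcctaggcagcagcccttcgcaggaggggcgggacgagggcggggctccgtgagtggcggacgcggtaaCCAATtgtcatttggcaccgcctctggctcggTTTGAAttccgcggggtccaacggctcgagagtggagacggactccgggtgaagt
Of the 25 proliferation genes with a promoter in the table, 21 held CCAAT (84%, against 37.9% of 27025 promoters of that length), 14 held TTTGAA (56% against 18.1%) and 14 held both (56% against 7.1%). Among 22 interstitial matrix genes with a promoter the shares were 27.3%, 18.2% and 4.5%. A match only says that these letters are present.

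Cdc20, which activates the complex that ends mitosis, was at 14.4, 8.28, 14.6, 8.04 and 11.9 CPM in bleomycin lungs of day 14 and 4.34, 3.75, 3.88 and 3.84 CPM on day 56, and saline lungs were at 3.77 to 4.71 and 3.47 to 6.21 CPM. Every day-14 bleomycin lung exceeded every other lung, and Cdc20 fell by 1.72 ± 0.27 (adjusted p = 3.46e-05, edgeR), with less than 0.5 of its day-14 difference left (adjusted p = 0.0069). Cdk1, the kinase of mitotic entry, was at 7.66, 5.599, 7.69, 2.98 and 8.28 CPM on day 14 and 0.945, 1.03, 1.16 and 1.81 CPM on day 56 in bleomycin lungs, against 0.523 to 1.52 and 0.475 to 1.46 CPM in saline lungs. On day 56 the treatments overlapped, and Cdk1 fell by 2.77 ± 0.58 (adjusted p = 0.00166, edgeR). Cenpf, of the kinetochore, fell by 2.85 ± 0.55 (adjusted p = 0.000549, edgeR). Prc1, which bundles microtubules of the spindle midzone, fell by 1.99 ± 0.39 (adjusted p = 0.000659, edgeR).

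Genes of recruited macrophages came down part of the way. Of 26 genes of monocyte-derived macrophages, 24 were higher on day 14 and 19 on day 56, 18 of them on both, with medians of 1.52 and 0.87. The change was lower for 8 and higher for none, 12 persisted, and 6 were partly resolved. Leaving out day-14 bleomycin lung 2, day-14 saline lung 3 or day-56 bleomycin lung 1, 2 or 3 gave 5 lower genes. Apoe, the lipid carrier of macrophages, was at 2288, 3320.0, 2273, 1322 and 2765 CPM in day-14 bleomycin lungs and 732, 866, 1009 and 1202 CPM in day-56 ones, against 535 to 637 and 561 to 801 CPM in saline lungs. The bleomycin lungs of the 2 days did not overlap, and Apoe fell by 1.52 ± 0.22 from 2.04 ± 0.16 (adjusted p = 5.95e-06, edgeR), leaving a day-56 difference of 0.51 ± 0.16 (adjusted p = 0.0161).

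The C1q chains, which start the classical complement pathway and are made by tissue macrophages, had the same form. C1qb was at 264, 367, 229.9, 107.4 and 314 CPM in bleomycin lungs on day 14 and 71.8, 79.8, 94.9 and 99.9 CPM on day 56, with saline lungs at 30.6 to 36.9 and 36.5 to 53.5 CPM. The 2 days did not overlap in bleomycin lungs, and those of day 56 still lay above all saline lungs. Its difference went from 2.89 ± 0.24 to 1.013 ± 0.24, both called, and fell by 1.88 ± 0.34 (adjusted p = 0.000233, edgeR). C1qa and C1qc fell by 1.74 ± 0.32 and 1.65 ± 0.32 (adjusted p = 0.000334 and 0.00059, edgeR). Of the 19 complement genes as a whole 14 were higher on day 14 and 8 on day 56, and 1 and 2 were lower. In the change 4 were lower (7 without day-14 bleomycin lung 4) and 1 higher, C6, which is named after its values were seen and whose call was lost without any 1 lung other than day-14 bleomycin lung 4, day-14 saline lung 3, day-56 bleomycin lung 1 and day-56 saline lung 5. Trem2, the lipid-sensing receptor of scar-associated macrophages, was at 64.1, 70.7, 69.7, 31.6 and 73.1 CPM on day 14 and 18.5, 32.4, 33.7 and 42.2 CPM on day 56 in bleomycin lungs, against 3.91 to 4.95 and 3.47 to 7.89 CPM in saline lungs. Every bleomycin lung of either day lay above every saline lung, and 3 of the 4 day-56 lungs exceeded the mild day-14 lung. Trem2 fell by 1.26 ± 0.38 (adjusted p = 0.0382, edgeR). This call was fragile: it was lost without any 1 of day-14 bleomycin lungs 1, 2, 3 and 5, day-14 saline lungs 1, 3 and 5, day-56 bleomycin lungs 1, 2 and 3, and day-56 saline lungs 1 and 2, with adjusted p up to 0.141.

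Chemokines that call monocytes into tissue were among the genes that fell. Ccl2 was at 9.57, 18.02, 9.50, 3.08 and 11.3 CPM in day-14 bleomycin lungs and 2.45, 2.87, 3.88 and 5.16 CPM in day-56 ones, against 1.10 to 2.01 and 1.62 to 3.17 CPM in saline lungs. Of the day-14 bleomycin lungs 4 lay above every day-56 one, and the mild lung lay among them. Ccl2 fell by 1.99 ± 0.53 (adjusted p = 0.0162, or 0.0756 without day-14 bleomycin lung 2, each by edgeR). Ccl7 and Ccl12, its neighbours that act on the same receptor, fell by 2.37 ± 0.53 and 2.01 ± 0.46 (adjusted p = 0.00318 and 0.00453, edgeR). Of 28 chemokines these 3 were called lower (5 without day-14 bleomycin lung 4) and 2 higher, Ccl20 and Cxcl15, which are named after their values were seen. Neither higher call was made without any 1 of day-14 bleomycin lungs 2 and 3, day-56 bleomycin lungs 2 and 3 and day-56 saline lung 2, and 1 was without day-14 bleomycin lung 1, day-14 saline lung 2 or 3 or day-56 saline lung 1 or 4. Of 36 cytokines, growth factors and receptors 6 were lower and 1 higher, with 2 lower without day-14 bleomycin lung 2, and 3 without day-14 saline lung 1 or 3, day-56 bleomycin lung 2 or 3, or day-56 saline lung 2. Lif, a cytokine of the interleukin-6 family, fell by 1.66 ± 0.36 (adjusted p = 0.00229, edgeR).

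Few lysosomal genes were called in the change, though most estimates were negative. Of 22 genes of lysosome and lipid handling, 19 were higher on day 14 and 21 on day 56, and 18 persisted. The change was negative for 18 of the 22, with a median of -0.23 against -0.01 over all genes tested. The median difference went from 0.97 to 0.67, and 1 of the 22 was lower in the change (4 without day-14 bleomycin lung 4, 2 without day-56 bleomycin lung 4, and none without any 1 of day-14 bleomycin lungs 2 and 5, day-14 saline lung 1, day-56 bleomycin lung 1 and day-56 saline lung 2). Gpnmb, a membrane protein of lipid-laden macrophages, was at 332, 310.4, 471, 187 and 321 CPM in day-14 bleomycin lungs and 100.2, 219, 246 and 306 CPM in day-56 ones, against 27.2 to 34.7 and 29.2 to 41.3 CPM in saline lungs. All bleomycin lungs lay above all saline lungs, lung 1 of day 56 lowest among them, and the change of -0.72 ± 0.43 was not called (95% interval -1.57 to 0.13). Spp1, osteopontin, was at 2124, 2618, 2253, 647 and 2438 CPM on day 14 and 326, 1175, 964 and 1235 CPM on day 56, with saline lungs at 90.1 to 143.3 and 124.8 to 148.2 CPM. Its change of -1.41 ± 0.51 had an adjusted p of 0.0923 by edgeR and passed the test without day-14 bleomycin lung 4, so that it is classed as persistent only by a narrow margin.

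Ctsk, the collagen-degrading cathepsin K, stayed high. Its day-14 bleomycin lungs were at 159, 148.2, 179.8, 100.7 and 134.2 CPM and its day-56 bleomycin lungs at 78.6, 155, 184 and 275 CPM. Saline lungs were at 25.8 to 36.8 CPM on day 14 and 24.8 to 37.8 CPM on day 56, below every bleomycin lung. The difference was 2.23 ± 0.30 and 2.48 ± 0.31, and more than 0.5 of the first was left on day 56 (adjusted p = 0.0168, edgeR). Slc26a4, the anion exchanger pendrin of airway epithelium, was at 54.9, 42.5, 50.2, 29.3 and 60.3 CPM and 34.03, 39.0, 51.1 and 64.7 CPM in bleomycin lungs of the 2 days. Its saline lungs lay at 5.77 to 7.94 and 4.13 to 8.97 CPM. The change was 0.02 ± 0.49 (95% interval -0.94 to 0.99), and more than 0.5 of the day-14 difference was left (adjusted p = 0.0385, edgeR). Cdkn2a, which codes for the cell cycle inhibitor p16 among other products, was counted per gene, so its transcripts were not told apart. Cdkn2a was higher on both days (1.3 ± 0.36 and 1.69 ± 0.38), with a change of 0.38 ± 0.52 that was not called. Cdkn1a, which codes for p21, was higher on day 14 (0.90 ± 0.15) and not called on day 56 or in the change (adjusted p = 0.0589, edgeR).

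**Figure D3:**
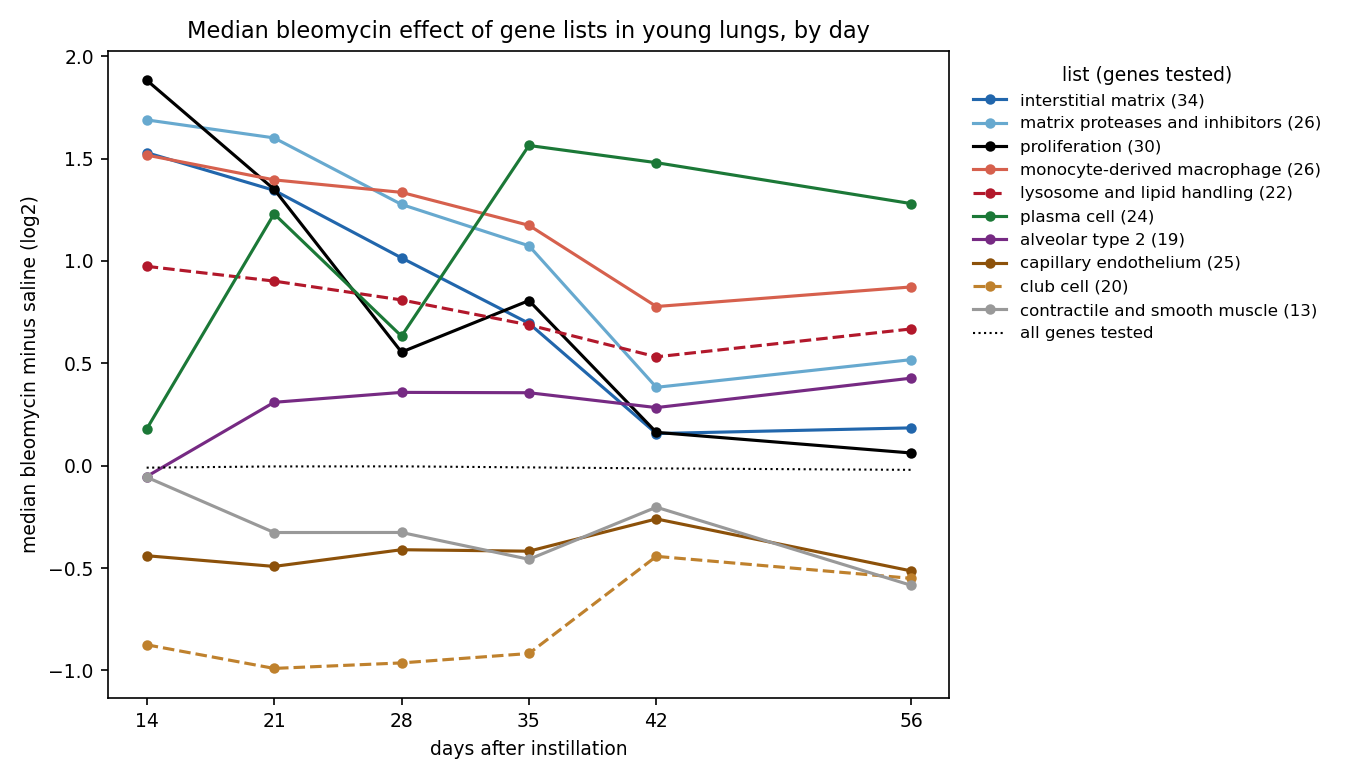
Median log2 difference between bleomycin and saline lungs (vertical axis) of 10 gene lists and of all genes tested, for young lungs on days 14 to 56 (horizontal axis). Proliferation and interstitial matrix come down to near 0, monocyte-derived macrophage and lysosome genes remain above it, and plasma cell genes end above their day-14 value.

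In the epithelium, transitional genes were lower and type 2 genes higher in the change. Of 24 genes of the transitional state between type 2 and type 1 cells, 20 were higher on day 14 and 9 on day 56, and 4 were lower in the change. The 4 became 2 without day-14 bleomycin lung 2 or 5, day-14 saline lung 1 or day-56 bleomycin lung 2, 1 without day-56 saline lung 2, and 7 without day-14 bleomycin lung 4 or day-56 saline lung 5. Cldn4, a tight junction protein of that state, was at 35.5, 54.4, 31.7, 13.3 and 47.1 CPM in day-14 bleomycin lungs and 4.23, 6.62, 6.61 and 8.18 CPM on day 56, against 4.62 to 5.79 and 4.47 to 7.30 CPM in saline lungs. The bleomycin lungs of the 2 days did not overlap, and Cldn4 fell by 2.58 ± 0.63 (adjusted p = 0.00712, edgeR). Krt8, the keratin by which the state is often named, had a change of -0.34 ± 0.20 that was not called (adjusted p = 0.372, edgeR).

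Of 19 type 2 genes, 5 were higher and none lower in the change, with medians of -0.05 on day 14 and 0.43 on day 56. The count was 0 without day-14 bleomycin lung 2, 2 and 3 without day-56 bleomycin lungs 3 and 2, and 8 without day-14 bleomycin lung 4. Lamp3, of the lamellar bodies that store surfactant, was at 497, 361, 444, 637 and 494 CPM in day-14 bleomycin lungs and 675, 687, 757 and 691 CPM on day 56, and at 579 to 631 and 504 to 593 CPM in saline lungs. All 4 day-56 bleomycin lungs lay above the other 15. Lamp3 rose by 0.67 ± 0.19 (adjusted p = 0.0233, and up to 0.0916 without day-14 bleomycin lung 2 or day-56 bleomycin lung 3, each by edgeR). Hc, which codes for complement C5 and is made by type 2 cells, was at 640.3, 306, 541, 850.4 and 639.7 CPM and 994, 1105, 1246 and 1271 CPM in bleomycin lungs of the 2 days. Saline lungs lay at 690.4 to 829 and 685 to 886 CPM, below every day-56 bleomycin lung. Hc rose by 0.95 ± 0.24 (adjusted p = 0.0119, or 0.0645 without day-14 bleomycin lung 2, each by edgeR). Sftpc, the type 2 surfactant protein, had a change of 0.44 ± 0.29 that was not called.

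Of 20 type 1 genes 6 were higher and 3 lower on day 14, and 7 were higher and none lower on day 56. Over all genes tested 20.1% were higher on day 14 and 7.91% on day 56. The mean log2 CPM of the 20 genes had medians of 9.07 and 9.03 in bleomycin lungs of the 2 days, and 8.94 and 8.635 in saline lungs. In the change 1 of the 20 was higher (2 without day-14 bleomycin lung 4 or day-56 saline lung 4 or 5). It was Rtkn2, a marker of type 1 cells, at 309.8, 308, 339, 253 and 344 CPM in day-14 saline lungs and 220.3, 179.5, 231, 273 and 212 CPM in bleomycin lungs of that day. On day 56 the saline lungs were at 244, 202, 224, 327 and 301 CPM and the bleomycin lungs at 369, 368, 369.5 and 344 CPM. The day-56 bleomycin lungs lay above all day-14 bleomycin and all day-56 saline lungs. Rtkn2 thus crossed, from -0.48 ± 0.15 to 0.48 ± 0.16, and rose by 0.96 ± 0.23 (adjusted p = 0.00524, edgeR). Ager, another marker of type 1 cells, had a change of 0.15 that was not called (adjusted p = 0.803, edgeR). The 1 lower gene, Igfbp2, which binds insulin-like growth factors, lost its call without any 1 lung other than day-14 bleomycin lung 4, day-56 bleomycin lung 2 and day-56 saline lungs 1, 3 and 5. Most genes of the club and ciliated cell lists were lower on day 14, but few were called in the change. Of 20 club cell genes 14 were lower on day 14 and 6 on day 56, and of 21 ciliated cell genes 18 and 12. Over all genes tested 19% and 8.3% were lower on the 2 days. In the change no club cell gene and 1 ciliated cell gene were higher (none of either without day-14 bleomycin lung 2 or 3).

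Some genes of lipid synthesis were higher in the change. Of 25 genes of cholesterol and fatty acid synthesis, 9 were lower on day 14, none was lower and 7 were higher on day 56, and 4 were higher in the change (2 without day-14 bleomycin lung 2, day-14 saline lung 4 or day-56 bleomycin lung 2 or 3). Acly, which makes cytosolic acetyl-CoA, rose by 0.52 ± 0.11 (adjusted p = 0.00191, edgeR). Acaca, which makes malonyl-CoA from it, rose by 0.59 ± 0.13 (adjusted p = 0.00276, edgeR). Fasn, the fatty acid synthase, was at 824, 641, 890.1, 817 and 775 CPM in day-14 and 1039, 1334, 1257 and 1263 CPM in day-56 bleomycin lungs, against 715 to 964 and 731 to 889 CPM in saline lungs. All 4 day-56 bleomycin lungs lay above the other 15. Fasn rose by 0.65 ± 0.19 (adjusted p = 0.0291, edgeR). Its call was lost, with adjusted p up to 0.0955, without day-14 bleomycin lung 2, day-14 saline lung 4, or day-56 bleomycin lung 2 or 3.

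Capillary endothelium remained low. Of 25 capillary genes 17 were lower on day 14 and 18 on day 56, with medians of -0.44 and -0.51, and 16 persisted. Kdr, the main receptor for VEGF-A, was at 662, 671, 635, 742 and 675 CPM in day-14 saline lungs and 366, 307, 336, 516 and 371 CPM in bleomycin lungs. On day 56 it was at 629.9, 601, 643, 659.8 and 659 CPM in saline and 529.5, 382, 347 and 357 CPM in bleomycin lungs. All 9 bleomycin lungs lay below all 10 saline lungs, with lung 4 of day 14 and lung 1 of day 56 nearest to them. The difference was -0.84 ± 0.15 and then -0.66 ± 0.16, and the change of 0.17 ± 0.21 had a 95% interval from -0.25 to 0.59. Prx, the periaxin gene, was the 1 capillary gene lower in the change, from -0.04 ± 0.12 to -0.63 ± 0.13. Its bleomycin lungs held 383, 303, 455, 364 and 306 CPM and 323, 299, 262 and 263 CPM on the 2 days, and its saline lungs 332, 388, 406, 381 and 356 CPM and 436, 594, 399.7, 411 and 375 CPM. Saline lung 2 of day 56 was the highest of the 19. Prx fell by 0.59 ± 0.17 (adjusted p = 0.0295, edgeR). The call was lost without that lung, and without any 1 of day-14 bleomycin lungs 1 and 3, day-14 saline lungs 1 and 5, and day-56 bleomycin lungs 3 and 4, with adjusted p up to 0.15.

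Most genes of lipofibroblasts and alveolar fibroblasts were lower on each day. Of 16, 11 were lower and 4 higher on day 14, 9 were lower and 3 higher on day 56, 11 persisted (3 higher and 8 lower), and 1 was lower in the change (2 without day-14 bleomycin lung 4). It was Mfap4, a microfibril protein, at 705, 728, 749, 639.5 and 763 CPM in day-14 and 343, 269.5, 239.7 and 309 CPM in day-56 bleomycin lungs, against 395 to 555 and 344 to 538 CPM in saline lungs. Its day-14 bleomycin lungs lay above all other lungs and its day-56 ones below all other lungs. Mfap4 crossed from 0.62 ± 0.15 to -0.57 ± 0.16 and fell by 1.2 ± 0.23 (adjusted p = 0.000424, edgeR). Scube2, a secreted protein that helps release hedgehog ligands, was lower on both days (-0.9958 ± 0.18 and -1.29 ± 0.20), with more than 0.5 of the day-14 difference left (adjusted p = 0.0347, edgeR). Its bleomycin lungs were at 34.3, 32.95, 39.6, 47.7 and 34.5 CPM on day 14 and 43.6, 30.4, 21.9 and 21.9 CPM on day 56, its saline lungs at 69.4 to 82.2 and 65.8 to 79.5 CPM.

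Some contractile genes were lower on each day except day 42. Of 13 genes of smooth muscle and contractile cells, 5, 6, 8, 6, 0 and 10 were lower on days 14, 21, 28, 35, 42 and 56. Of all 18396 genes tested, 3492, 3220, 2668, 1764, 530 and 1526 were lower on those days. The median of the 13 genes was -0.06 on day 14 and -0.58 on day 56. None of the 13 was higher on either day, and 1, Tagln, was called lower in the change (4 without day-14 bleomycin lung 4). Tagln, the actin-binding transgelin, was at 166, 184, 153, 154 and 140.5 CPM in saline and 190.2, 260.2, 138, 131.8 and 232 CPM in bleomycin lungs on day 14. On day 56 it was at 187, 227, 194, 156 and 170.3 CPM in saline and 119.5, 129.9, 105.6 and 135.9 CPM in bleomycin lungs. The day-56 bleomycin lungs lay below all 10 saline lungs. Tagln fell by 0.86 ± 0.26 (adjusted p = 0.0343, edgeR). This call was lost, with adjusted p up to 0.141, without any 1 of day-14 bleomycin lungs 1, 2 and 5, day-14 saline lungs 3 and 5, day-56 bleomycin lungs 1, 2 and 3, and day-56 saline lung 2. Acta2, the smooth muscle actin by which myofibroblasts are usually marked, was not higher on day 14 (0.11 ± 0.19), was lower on day 56 (-0.58 ± 0.20) and was not called in the change (adjusted p = 0.132, edgeR). Cardiac muscle genes, which mark heart or pulmonary vein muscle in the dissected piece, were lower in 12 of 15 cases on each day (10 of them on both) and in none on day 42, and their part in the contractile values was not tested.

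**Figure D4:**
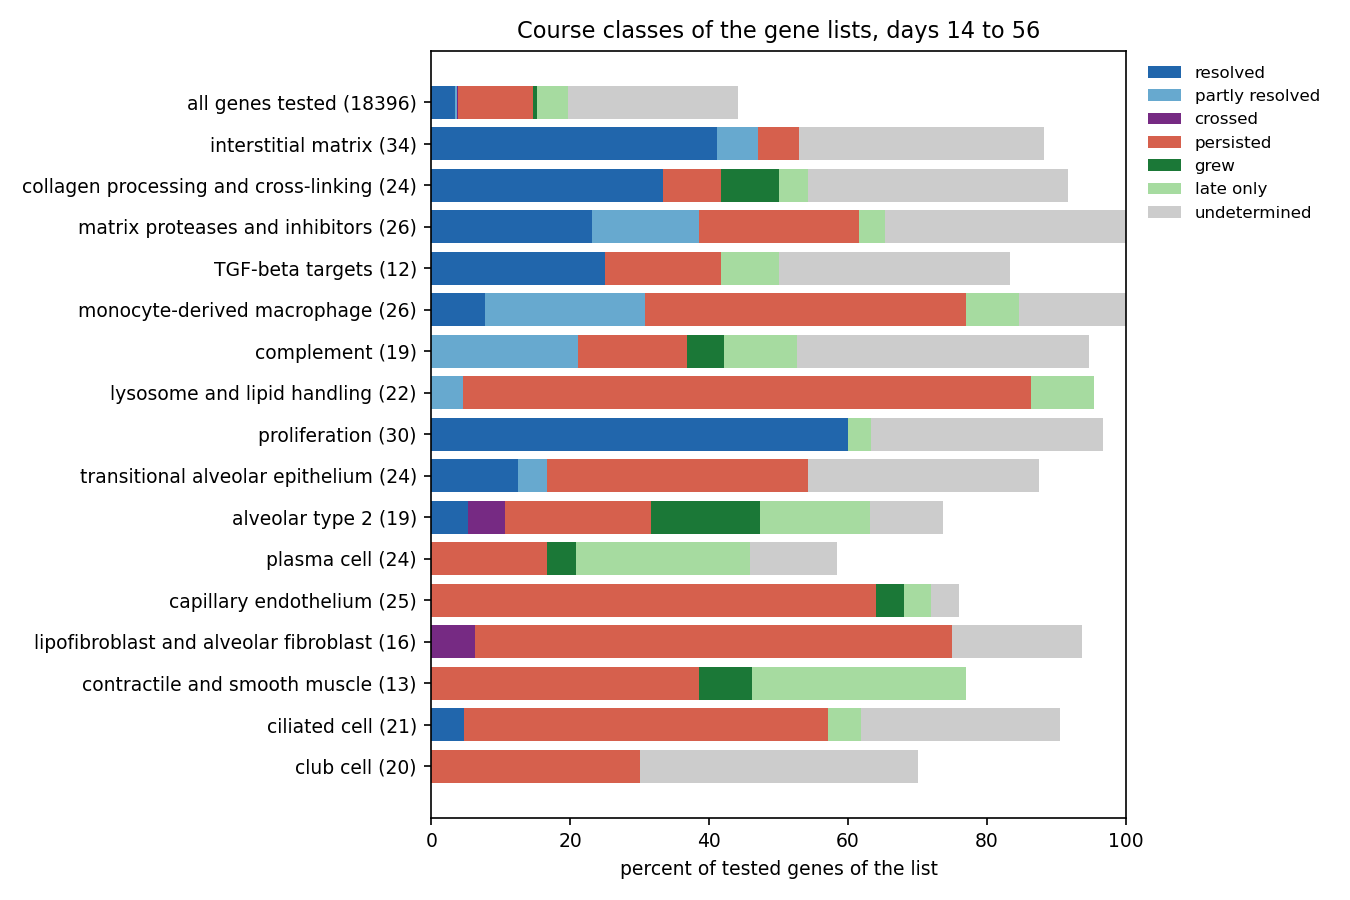
Share of each course class (stacked bars, horizontal axis, percent of the genes tested in the list) in 16 gene lists and in all genes tested, with the number of genes tested in brackets. Resolved and undetermined genes fill the proliferation and interstitial matrix bars, and persistent genes fill most of the lysosome and capillary bars.

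Antibody genes were higher on more days than day 56. Of 24 plasma cell genes 5 were higher on day 14, 14 on day 21, 9 on day 28, 13 on days 35 and 42 and 11 on day 56, with medians of 0.18, 1.23, 0.63, 1.56, 1.48 and 1.28. Of all 18396 genes tested, 3696, 3458, 2703, 1862, 871 and 1456 were higher on those 6 days. The plasma cell count of day 14 was thus near the share of all genes (20.1%). In the change 2 were called higher and none lower. Iglc1, the constant region of a lambda light chain, was at 4.42, 4.47, 4.17, 4.53 and 3.41 CPM in saline and 2.54, 1.69, 2.19, 2.94 and 2.997 CPM in bleomycin lungs on day 14. On day 56 it was at 2.35, 2.87, 3.51, 2.76 and 2.76 CPM in saline and 30.1, 14.2, 10.8 and 21.8 CPM in bleomycin lungs. All 4 day-56 bleomycin lungs lay above the other 15, and Iglc1 rose by 3.5 ± 0.94 (adjusted p = 0.0171, edgeR). The other member called was Iglc2, the constant region of another lambda light chain. How reads that match more than 1 immunoglobulin gene were counted is not given. Iglc2 rose by 2.15 ± 0.67 (adjusted p = 0.0442, edgeR), a call lost without any 1 lung other than day-14 bleomycin lungs 4 and 5, day-14 saline lung 3 and day-56 saline lungs 3 and 5. Igkc, the kappa constant region, was at 117.3, 125.6, 142.6, 113.8 and 175 CPM in day-14 and 646, 956, 613 and 901 CPM in day-56 bleomycin lungs, against 50.9 to 108.1 and 70.5 to 127.3 CPM in saline lungs. Its change of 2.45 ± 0.80 missed the threshold (adjusted p = 0.0576, edgeR), although its day-56 bleomycin lungs lay above all others. Jchain, which joins IgA and IgM units, was at 32.5, 37.6, 46.1, 28.4 and 42.4 CPM and 211, 333, 176 and 291 CPM in bleomycin lungs, with a change of 2.01 ± 0.85 (adjusted p = 0.161, edgeR). Of 181 immunoglobulin V segments tested, 87 were higher on day 56 and 6 on day 14, with medians of 2.96 and 0.27. In the change 12 were higher and none lower, with a median of 2.60. None of the 181 differed between the saline groups (edgeR, adjusted p).

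B cell genes gave no call in the change. Of 17 tested, 14 were lower on day 14 and none on day 56 (medians of -1.31 and -0.46). None was called in the change by edgeR, although all 17 changes were positive, with a median of 0.73. The saline lungs of the 2 days had unequal levels, though no member was called between them: the summed level of the 17 genes had a median of 329.7 CPM on day 14 and 184.9 CPM on day 56 in saline lungs, and 145.8 and 163.1 CPM in bleomycin lungs, and the median difference between the saline groups was -0.76. Cytotoxic and NK cell genes were lower in 13 of 19 cases on day 14 and 1 on day 56, with none called in the change.

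Metallothioneins were lower in the change, and the saline groups of the 2 days also differed for Mt1. Mt2, a metal-binding protein induced by glucocorticoids and zinc, was at 12.6, 16.97, 8.70, 9.81 and 8.99 CPM in saline and 63.6, 147.1, 123.7, 26.5 and 80.2 CPM in bleomycin lungs on day 14. On day 56 it was at 21.3, 43.5, 23.04, 20.1 and 12.6 CPM in saline and 22.1, 21.9, 27.3 and 29.7 CPM in bleomycin lungs. Mt2 fell by 2.89 ± 0.48 (adjusted p = 9.53e-05, edgeR), with a difference of 1.08 ± 0.33 between the saline groups (adjusted p = 0.134). Mt1 fell by 2.03 ± 0.35 (adjusted p = 0.000141, edgeR), and its saline groups differed by 0.98 ± 0.24 (adjusted p = 0.0316). Egr2, an immediate early transcription factor, was at 13.3, 24.6, 7.97, 10.01 and 7.39 CPM and 28.4, 55.6, 29.2, 54.9 and 18.7 CPM in saline lungs of the 2 days, and at 33.7, 45.5, 21.2, 25.5 and 41.2 CPM and 42.6, 15.8, 16.3 and 26.3 CPM in bleomycin lungs. It fell by 1.97 ± 0.46 (adjusted p = 0.00492, edgeR), but in the 4 groups alone or with the young saline lungs pooled it was not called, with adjusted p up to 0.535. Of the 17 immediate early genes 2 were lower in the change and 6 were higher in day-56 than in day-14 saline lungs. The count of 2 was 0 in the 4 groups alone or with pooled saline lungs, 6 without day-14 saline lung 2, 8 without day-56 bleomycin lung 1, and 1 without day-14 bleomycin lung 5, day-14 saline lung 3 or 5, day-56 bleomycin lung 2 or 3, or day-56 saline lung 2. Of 12 glucocorticoid-responsive genes, 1 of which is also an immediate early gene, 5 were lower, and 1 was with the mean of the immediate early genes as a covariate. Without single lungs the 5 became 2 or 3, for day-14 bleomycin lungs 2 and 3, day-14 saline lungs 4 and 5, day-56 bleomycin lungs 2, 3 and 4, and day-56 saline lungs 2 and 4. With the same covariate the lower genes were 4 of collagen processing (10 without it), 3 of basement membrane (5), 1 of the TGF-beta targets (3) and 2 of the cytokines (6), the higher type 2 genes were 2 (5), and the 1 lower gene of the contractile, capillary and type 1 lists and the higher complement and chemokine genes were not called. Its members' own calls cannot be judged with their mean as a covariate, and the part of handling in these falls was not tested.

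The intermediate days use other lungs, and the change from day 21 to day 42 in young mice was computed from 19 of them. It called 356 genes (1.94%), of which 240 were lower (1.3%) and the others higher (0.631%). Of the 579 genes lower between days 14 and 56, 100 were also lower between days 21 and 42 (17.3% of the first list and 41.7% of the second). Of the 251 higher genes 12 were (4.78% and 10.3%), and no gene had opposite calls. Among the interstitial matrix genes 14 of 34 were lower between days 21 and 42, and Eln fell by 1.65 ± 0.43 (adjusted p = 0.0297, edgeR). The matrix median was 1.34, 1.015, 0.70 and 0.16 on days 21, 28, 35 and 42, and the proliferation median 1.35, 0.55, 0.81 and 0.16. Of the lysosome genes 1 of 22 was lower in that interval. Day 42 had fewer calls than day 56, 1401 (7.62%; 4.73% higher and 2.88% lower) against 2982, and for capillary genes 5 of 25 were lower on day 42 against 18 on day 56. Persistence from day 14 to day 56 is therefore not a steady level on every day between them.

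Old mice, given the lower dose, supplied 29 other lungs for the same 2 days (6 and 6 on day 14, 11 saline and 6 bleomycin on day 56). Their change called 4866 genes (26.5%), 2000 higher (10.9%) and 2866 lower (15.6%). Of the 579 genes lower in young mice 378 were lower in old mice (65.3%, and 13.2% of the old list), and of the 251 higher genes 59% were higher (7.4% of the old list). No gene had opposite calls. When the old change was set against the young one directly, 0 genes (0%) passed edgeR's test at an adjusted p below 0.05, with 1473 at an unadjusted p below 0.05, and DESeq2 called 2. Interstitial matrix genes were lower in 21 of 34 cases in old mice and in 16 in young mice, and proliferation genes in 24 and 18 of 30. Plasma cell genes were higher in 14 of 24 in old mice and 2 in young mice. Lysosome genes were lower in 9 of 22 in old mice and 1 in young mice. None of the members was called in the direct test between ages, so these counts do not show that the ages differ.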

How the data were processed

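RNA of 60 young and 77 old mouse lungs was sequenced, 1 library per lung, and the authors deposited 1 table of whole-number read counts per gene, not normalized. The submitters' processing notes name bcl2fastq 2.20.0.422, FastQC 0.11.5, STAR 2.5.2 and 2.5.2b, featureCounts 1.5.1 and RSEM 1.3.0 with the builds hg38, GRCh38 and GRCm38, without a role for each. Strandedness, annotation and treatment of multi-mapped reads are not given in the sources used here. Columns were matched to samples by title.

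Counts of 48794 genes were filtered with edgeR's filterByExpr (minimum count 10, minimum total 15), scaled by TMM and fitted with edgeR 4.0.16 (R 4.3.3; quasi-likelihood, robust) over all libraries in 26 groups, with 111 residual degrees of freedom. Differences are contrasts of group means on the log2 scale, given with their standard error, and p-values were adjusted by Benjamini-Hochberg over the 18396 genes tested. Another contrast set the day-56 difference against 0.5 of the day-14 difference. Of 18396 genes 18348 had a GENCODE M21 symbol. The members and lists were chosen with earlier results of these data known. Named genes are the 10 largest falls and rises without overlap of bleomycin lungs, 6 per class, 6 per direction among genes keeping more than 0.5, 3 per list by p of the change, and a fixed panel. Alternatives were no filter, DESeq2 1.42.0, RLE scaling, young libraries only, the 4 groups only, all young saline lungs pooled, and each lung left out in turn. A covariate, the mean log2 CPM of the immediate early list, was added after seeing the data. The contrast was tested on simulated data of 18340 genes, where 88 of 100 genes with a log2 change of 1 and 97 of 100 with a change of 2 were recovered. The changed genes all had an average log2 CPM above 1, and 4 of the 189 genes called had not been changed. Counts were drawn independently for each gene and lung. Shared differences in severity between lungs were thus not simulated, and the recovery in the real lungs is not known. The depth of 17813587 to 31019168 reads per lung makes counting error small beside the spread between lungs except for genes near 1 CPM. A result for 1 gene is not reported here.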

Additional observations from a re-analysis of the deposited data

Results flagged for a closer look

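In 8 of the 140 groups of values examined, 1 lung stood far from the others of its group, where chance alone flags about 1 in 20 groups. Day-56 saline lung 2 was the high one for 3 genes: Col1a1 was at 712 CPM there and at 442 to 479 CPM in the other 4, Timp1 at 10.01 CPM against 4.99 to 5.84 CPM, and Prx at 594 CPM against 375 to 436 CPM. The mild day-14 bleomycin lung 4 was the low one for 2 macrophage genes, Trem2 at 31.6 CPM against 64.1 to 73.1 CPM and Spp1 at 647 CPM against 2124 to 2618 CPM. Spp1 was also low in day-56 saline lung 5, at 124.8 CPM, against a group median of 146.9 CPM. Cdk1 was at 1.52 CPM in day-14 saline lung 1 and at 0.523 to 0.778 CPM in the other 4. Rtkn2 was at 344 CPM in day-56 bleomycin lung 4 and at 367.5 to 369.5 CPM in the other 3.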

How the results depend on the processing

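No paired analysis was possible because lung numbers come from accession order and link no mice across groups. With 4 or 5 lungs per group the number of changed genes depended on single lungs and on the pool of libraries that sets the spread. With 1 lung left out, 318 to 1673 genes changed, the day-56 difference called 1724 to 3075 and the test of the 0.5 share 0.28% to 2.38% of genes. The classes ranged over 247 to 1282 resolved, 13 to 156 partly resolved, 1241 to 2050 persistent, 43 to 158 grown, 5 to 40 crossed and 411 to 1025 late genes. The day-14 difference, at 5990 to 7865, and the undetermined class, at 3820 to 5490, moved by less than 1.5 times. The lowest counts came mostly without day-14 bleomycin lung 2 or day-56 bleomycin lung 3, and the highest of the change without the mild day-14 bleomycin lung 4.

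Without the filter on low counts 431 genes changed, the 0.5 share called 0.397% of genes tested, the saline groups 0.0745% and the change from day 21 to day 42 86 genes, with 347 resolved, 13 partly resolved, 50 grown and 8 crossed. This setting tests more genes. DESeq2 called 0.549% of genes between the saline groups, 2 between old and young changes, and 75 partly resolved genes. In young libraries alone 1360 genes changed, with 989 resolved, 96 partly resolved, 184 grown and 57 crossed, and in the 4 groups alone 166 grew and 54 crossed. With all young saline lungs as 1 control 2378 genes changed, the 0.5 share called 4.09%, and there were 1566 resolved, 455 partly resolved, 245 grown, 39 crossed and 494 late genes. With the handling covariate, chosen after seeing the data, 519 changed and the 0.5 share called 0.386%, with 414 resolved, 49 grown and 527 late. The share of lower genes among those called was 59.4% to 77.7% over all settings. Of the named genes called in the change, 54 kept their call in every setting, the others lost it in at least 1, and none reversed. Without day-14 bleomycin lung 2, 39 of the named genes lost their call. The causes of these moves were not tested, apart from the number of genes or lungs in the fit.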

Other observations

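Mesothelial genes, which mark the cells that cover the lung surface, were higher on day 56 in 6 of 10 cases and on day 14 in 1, with medians of 0.93 and 0.23. Over all genes tested 7.91% and 20.1% were higher on those days. The mean log2 CPM of the 10 genes had medians of 5.18 on day 14 and 5.28 on day 56 in bleomycin lungs. In saline lungs it had medians of 4.95 and 4.71, so the levels in bleomycin lungs were much alike on the 2 days. None of the 10 genes was called in the change by edgeR, and none was higher on day 42. Genes of alveolar macrophages that live in the lung were higher in 4 of 20 cases on day 14 and 10 on day 56, with 6 lower on day 14 and 5 on day 56. Over all genes tested 20.1% were higher and 19% lower on day 14, and 7.91% and 8.3% on day 56. The day-14 count of higher genes was thus at the share of all genes. In the change Ear1, a ribonuclease of these cells, was called higher, by 1.62 ± 0.36 (adjusted p = 0.00295, edgeR). It was the 1 gene of the list called, against 3 without day-14 bleomycin lung 4 or in young libraries alone, 5 with pooled saline lungs, and 2 by DESeq2, with RLE scaling, in the 4 groups alone, with the covariate, or without day-14 bleomycin lung 5, day-14 saline lung 5, day-56 bleomycin lung 1 or day-56 saline lung 1. Fabp1, a fatty acid carrier, was lower on both days, and its change of 1.77 (adjusted p = 0.0763, edgeR) passed the test in 4 of 26 settings.

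Genes of the p53 response and senescence were higher in 16 of 23 cases on day 14 and 3 on day 56, with 3 lower and 1 higher in the change. The 3 became 0 without day-14 bleomycin lung 2, 5 without day-14 bleomycin lung 4 or day-56 saline lung 5, 1 with the covariate, and 2 or 4 without 11 other lungs. The higher gene was not called without any 1 of 13 lungs. Interferon response genes were higher in 8 of 28 cases on day 14 and 1 on day 56, and none was called in the change by edgeR. Over all genes tested 20.1% were higher on day 14 and 7.91% on day 56, so the interferon counts were near the shares of all genes. Of 20 interferon genes with a RefSeq promoter, 13 held the interferon-stimulated response element on either strand (65%, against 3.5% of 27025 promoters). Some genes crossed sides without belonging to any list: Gpc1, a heparan sulfate proteoglycan, went from 0.69 to -0.59 and fell by 1.28 ± 0.23 (adjusted p = 0.000247, edgeR), and Uchl1, a ubiquitin hydrolase of neuroendocrine cells and neurons, went from 0.64 to -0.62 and fell by 1.26 ± 0.24 (adjusted p = 0.000559, edgeR).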
